A study of Homo sapiens with 36 samples.

Results

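Expression was compared between U2OS cells given a dimerizer for 8 h and untreated cells of the same genotype, in 6 of the 36 RNA-seq libraries of the series. The 6 libraries were all those labelled wild type (WT) with 8 h of dimerizer, 3 wells, or WT and not treated, 3 wells, and every gene with enough counts was tested. U2OS is a human osteosarcoma line. All cells, untreated and ATF4KO ones included, carried Dmr-PERK, in which mouse PERK's kinase domain is joined to DmrB, a domain that pairs when the ligand AP20187 is added. The labels of treated wells give the amount of dimerizer as a bare number without a unit, which is not repeated here. The neighbouring WT groups at 4 h and 16 h and the ATF4KO groups, 8 h and untreated, served for direct comparison, with 3 wells each. Vehicle wells, untreated wells of a matching hour and cells that lack Dmr-PERK were not analysed here, so the kinase, the ligand and the hours in culture cannot be told apart. Whether the wells were separate cultures is not stated in the labels, and a p value here reflects well-to-well spread, which may be technical.

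PERK is 1 of the kinases that phosphorylate the translation initiation factor eIF2, the event that defines the integrated stress response (ISR). Phosphorylated eIF2 blocks its own exchange factor eIF2B, so most translation slows while a few mRNAs with upstream reading frames, ATF4 among them, are translated more. ATF4 is a transcription factor that, paired with C/EBP proteins, is known to drive genes of amino acid synthesis, uptake and tRNA charging, and genes such as DDIT3 and PPP1R15A that act back on the response. Activating the kinase by a ligand leaves out the unfolded proteins or missing amino acids that start the ISR in most experiments.

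Total counts ran from 8608783 to 11827083 in the 8 h libraries and from 10112401 to 15178984 in the untreated libraries. Genes with any count numbered 26953 to 28434 at 8 h and 28535 to 30798 untreated, and mitochondrial genes took 4.80 to 4.86% of the counts at 8 h and 5.65 to 5.70% untreated. Markers of the mesenchymal lineage of U2OS were present, with VIM at 2007 to 2115 CPM at 8 h and 2897 to 2930 CPM untreated and RUNX2 at 46.6 to 48.5 CPM at 8 h and 29.2 to 32.5 CPM untreated. COL1A2 stayed at or under 1.12 CPM and TWIST1 was at 0 in all 6. Of the blood and liver markers CD3E and ALB were at 0, and HBB had at most 0.0659 CPM. CD68 reached 2.701 CPM at 8 h, and PTPRC and APOA1 reached 1.084 and 1.054 CPM untreated. Markers of other lineages were therefore not all absent. The neuron markers SYP and RBFOX3 reached 17.78 and 12.03 CPM at 8 h and 6.192 and 12.12 CPM untreated. The epithelial markers EPCAM and CDH1 reached 4.155 and 7.272 CPM at 8 h, and the endothelial VWF 2.857 CPM untreated. KRT18, a keratin also made by many cultured cells, had 786 to 794 CPM at 8 h and 690 to 701 CPM untreated.

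Levels are CPM, a gene's share of its library's counts after TMM scaling, and mean levels carry ± SD with n = 3 wells per group. Changes are log2 fold changes ± SE at 8 h relative to untreated from the fit by edgeR, and a gene is said to rise or fall only where its adjusted p was under 0.05. Of 19043 tested genes 59.3% passed: 5652 genes (29.7%) were higher and 5646 (29.6%) lower at 8 h. Counts of list members below are to be read against these shares, and 67.2% of protein-coding genes were called in either direction. Most changes were small. At least 2-fold changes were found in 1059 higher genes (5.56%) and 1557 lower genes (8.18%), and at least 8-fold changes in 77 higher and 73 lower genes. Libraries did not overlap in 31.2% of tested genes on the higher side and 31.7% on the lower side. By annotation 4298 of 12535 protein-coding genes were higher and 4120 lower, and of 1177 lincRNA genes 191 were higher and 241 lower. The median change of all tested genes was -0.02. CPM are shares of a library: a lower share cannot be told apart from more RNA of other genes, nor fewer cells from less RNA per cell.

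**Figure D1:**
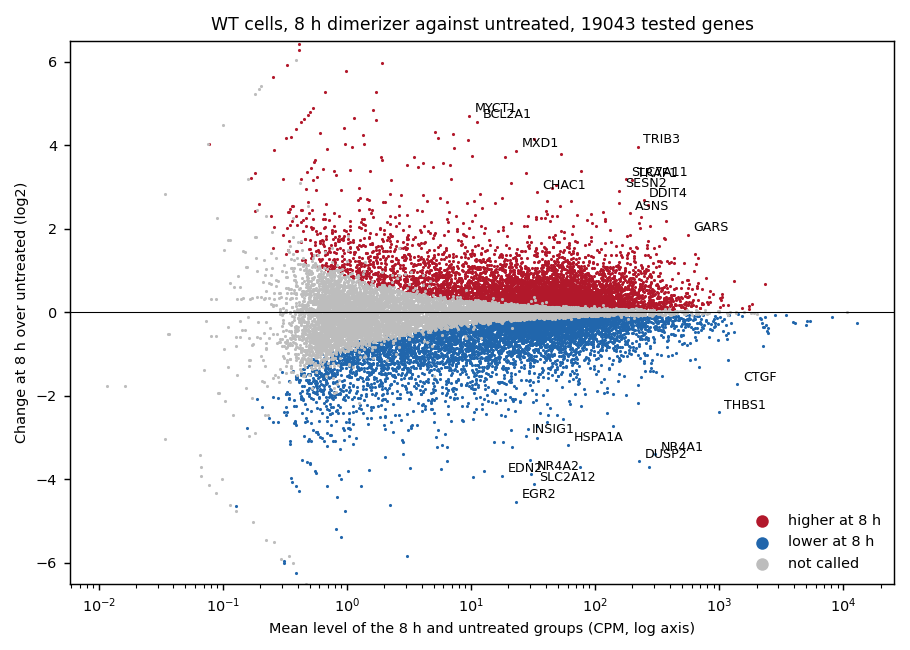
Each point is 1 of the 19043 tested genes in WT cells; the x axis is the mean of the 8 h and untreated levels (CPM, log axis) and the y axis is the log2 change at 8 h over untreated. Red points were higher (5652 genes), blue points lower (5646 genes) and grey points were not called. The y axis is cut, so the largest falls, such as RP11-903H12.5 (-8.07) and AC026348.1 (-7.95), lie outside it.

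ATF4 mRNA, which encodes the central transcription factor of the ISR (GRCh38, chr22:39519695-39522685), was more abundant after 8 h in every well. It had 720.5, 707 and 746 CPM in the 8 h libraries, against 310.1, 323 and 322 CPM in the untreated libraries. The groups were far apart, and the change was 1.19 ± 0.03 (adjusted p = 3.1e-30). DDIT3, which encodes the transcription factor CHOP, had 75.0, 73.8 and 82.0 CPM in the 8 h libraries, against 30.4, 32.1 and 31.0 CPM in the untreated libraries, a change of 1.31 ± 0.07. TRIB3 (chr20:362835-397559), a pseudokinase that binds ATF4 and CHOP, had 409.6, 406 and 430.1 CPM in the 8 h libraries, against 26.7, 25.7 and 27.4 CPM in the untreated libraries. Its lowest treated well held over 10 times the CPM of its highest untreated well, and the change of 3.96 ± 0.05 was the largest among the 18 tested transcription factor and Tribbles genes.

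Of those 18 genes 13 rose and 5 fell (3 fell on the log2(TPM + 1) scale), with a median change of 0.78. CEBPG, a C/EBP partner of ATF4, rose by 2.07 ± 0.05 and CEBPB by 1.09 ± 0.05. NFIL3, a basic leucine zipper repressor, rose by 2.29 ± 0.07, and BATF3 by 1.59 ± 0.14. NUPR1, a small stress-induced chromatin protein, had 90.4 ± 2.76 CPM at 8 h and 37.0 ± 1.86 CPM untreated. ATF5, whose mRNA is translated like that of ATF4, rose by 0.81 ± 0.06 and ATF6, the membrane-bound factor of the ER stress response, by 0.75 ± 0.04. The 2 other Tribbles genes went down: TRIB1 had 35.7 ± 0.681 CPM at 8 h and 127 ± 2.37 CPM untreated and TRIB2 had 12.7 ± 0.736 CPM at 8 h and 70.3 ± 2.55 CPM untreated, changes of -1.83 and -2.47. CEBPD also fell, by 0.76 ± 0.16, at a low level of 3.93 CPM at 8 h and 6.77 CPM untreated. ATF3, an early stress factor, had 131, 153 and 162 CPM in the 8 h libraries, against 119, 138 and 129 CPM in the untreated libraries. Its wells overlapped, and the change of 0.23 ± 0.10 passed only narrowly (adjusted p = 0.045). It was not called by DESeq2 (0.21) or without untreated well 1 or 3 or treated well 2 or 3.

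Genes that set eIF2 phosphorylation and its reading rose for the most part: of 16 tested, 10 were higher and 3 lower, with a median of 0.39. PPP1R15A (chr19:48872392-48876057), which encodes GADD34, the inducible subunit of the phosphatase that removes the mark, had 149, 151 and 156 CPM in the 8 h libraries, against 54.2, 54.9 and 52.6 CPM in the untreated libraries. No wells overlapped, and the change was 1.50 ± 0.06 (adjusted p = 3.6e-24). The constitutive subunit PPP1R15B was not called, with 129 ± 1.52 CPM at 8 h and 126 ± 0.355 CPM untreated. Each subunit of eIF2 rose, EIF2S1 by 0.63 ± 0.03, EIF2S2 by 1.10 ± 0.04 and EIF2S3 by 0.54 ± 0.03. Of the 5 subunits of the exchange factor eIF2B, EIF2B3 rose by 0.97 ± 0.07, EIF2B5 by 0.48 ± 0.04, EIF2B2 by 0.41 ± 0.05 and EIF2B1 by 0.37 ± 0.05, while EIF2B4 was not called (-0.06).

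The 3 other eIF2 kinases were lower: EIF2AK4 (GCN2) fell by 0.29 ± 0.04, EIF2AK2 (PKR) by 0.24 ± 0.04 and EIF2AK1 (HRI) by 0.11 ± 0.03, though on the log2(TPM + 1) scale EIF2AK2 (0.02) and EIF2AK1 (0.01) turned positive and were not called. EIF2AK3 (PERK) had 778, 771 and 813 CPM in the 8 h libraries, against 649.8, 682 and 697 CPM in the untreated libraries, a change of 0.22 ± 0.03. The tables list no separate entry for the mouse kinase domain of Dmr-PERK, and its part in the EIF2AK3 counts was not tested.

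**Figure D2:**
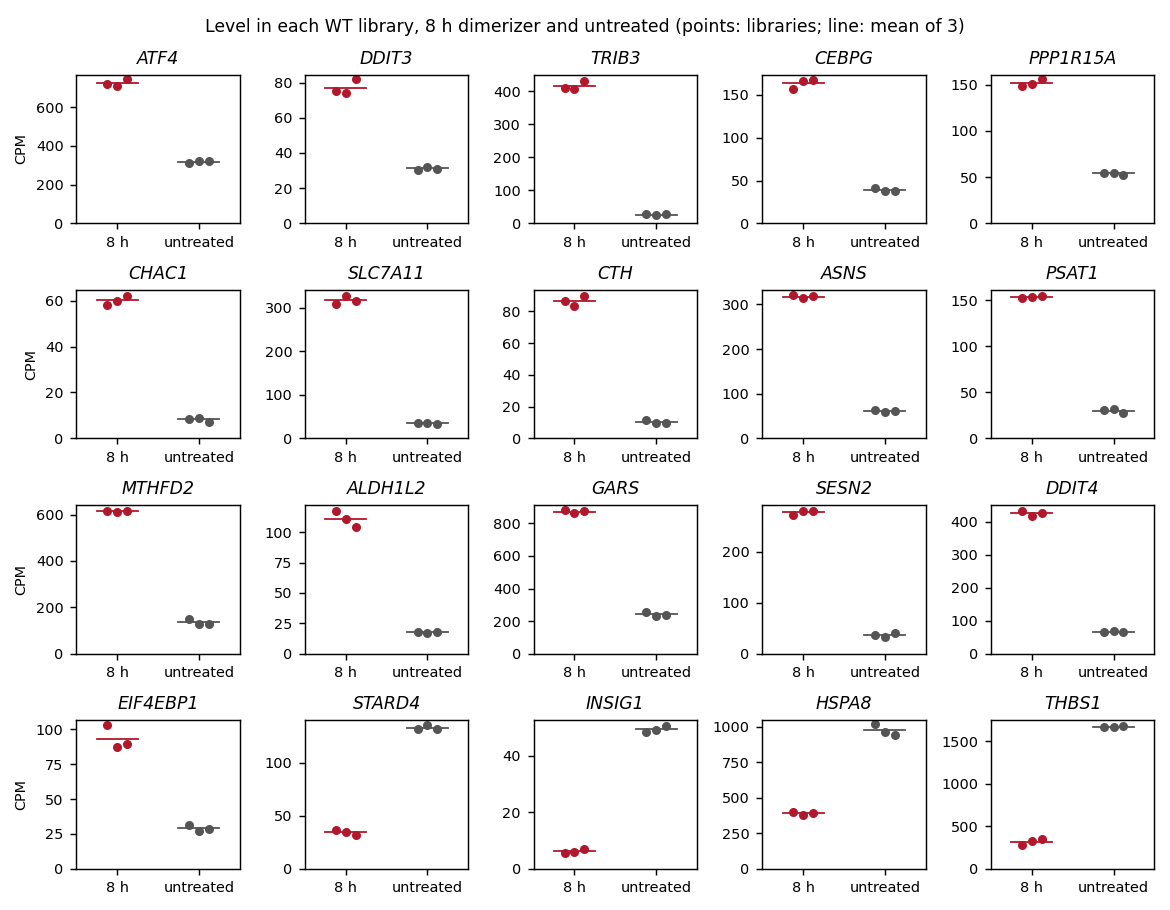
Each panel shows 1 gene in the 6 WT libraries, with the level in CPM on a y axis that starts at 0, the 8 h wells in red on the left and the untreated wells in grey on the right; short lines are means of 3. The wells of a group sit close together, with 16 genes higher and the 4 genes in the last panels (STARD4, INSIG1, HSPA8, THBS1) lower at 8 h.

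Enzymes that make serine and the mitochondrial enzymes that carry 1-carbon units on folate rose. PHGDH, PSAT1 and PSPH, the 3 steps of serine synthesis, rose by 0.97 ± 0.04, 2.35 ± 0.05 and 2.42 ± 0.08. PSAT1 had 153, 154 and 155 CPM in the 8 h libraries, against 30.8, 32.0 and 28.0 CPM in the untreated libraries, with no overlap. The mitochondrial folate enzymes SHMT2, MTHFD2, MTHFD1L and ALDH1L2 rose by 1.53 ± 0.04, 2.17 ± 0.04, 1.29 ± 0.04 and 2.66 ± 0.06, and ALDH1L2 had 118, 111 and 105 CPM in the 8 h libraries, against 17.98, 16.8 and 17.5 CPM in the untreated libraries. Every treated well of ALDH1L2 was more than 5 times its highest untreated well. The cytosolic enzymes moved little or fell: MTHFD1 rose by 0.42 ± 0.04, and SHMT1 fell by 0.32 ± 0.07 and ALDH1L1 by 0.46 ± 0.16. TYMS, thymidylate synthase, fell by 0.17 ± 0.04. In the whole list 11 of 17 genes rose and 5 fell (median 0.44), against 2 that fell on the log2(TPM + 1) scale. TYMS, SHMT1 and ALDH1L1 were not called on that scale (-0.10, -0.27 and -0.50).

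ASNS (chr7:97852118-97872542), asparagine synthetase, had 320.0, 314 and 318 CPM in the 8 h libraries, against 63.3, 59.7 and 61.2 CPM in the untreated libraries. The treated wells lay within 6 CPM of each other and no well overlapped, a change of 2.37 ± 0.04 (adjusted p = 1.4e-35). GPT2, the mitochondrial alanine transaminase, rose by 2.24 ± 0.05 and GOT1, the cytosolic aspartate transaminase, by 1.65 ± 0.05, against 0.09 ± 0.03 for the mitochondrial GOT2, which was not called when genes of low counts were kept in the fit. The proline enzymes PYCR1, PYCRL and ALDH18A1 rose by 0.99 ± 0.04, 1.12 ± 0.06 and 0.57 ± 0.04. Other members of the list went the other way. GLUL, glutamine synthetase, fell by 1.50 ± 0.16 at 3.54 CPM at 8 h and 10.2 CPM untreated, OAT by 0.61 ± 0.04, and GPT, the cytosolic alanine transaminase, by 1.22 ± 0.17 at 3.30 CPM at 8 h and 7.75 CPM untreated. The list counted 11 higher and 4 lower genes of 15 (median 0.50).

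SLC7A11 (chr4:138164097-138242349), the cystine-glutamate exchanger, had 309, 327 and 315 CPM in the 8 h libraries, against 36.3, 35.96 and 32.7 CPM in the untreated libraries. The treated wells were all over 8 times the untreated ones, and the change was 3.18 ± 0.05. Its heavy chain SLC3A2 rose by 1.39 ± 0.04. The transsulfuration pair CBS and CTH, which makes cysteine from homocysteine, rose by 1.51 ± 0.06 and 3.05 ± 0.06, and CTH had 86.7, 83.1 and 89.6 CPM in the 8 h libraries, against 11.9, 9.56 and 9.62 CPM in the untreated libraries. CHAC1, an enzyme that breaks glutathione, had 58.2, 59.9 and 62.0 CPM in the 8 h libraries, against 8.50, 8.96 and 7.30 CPM in the untreated libraries, with a change of 2.87 ± 0.10 and no overlap. CHAC2, a constitutive relative, was not called (0.05). Glutathione synthesis rose by smaller steps, GCLM by 0.70 ± 0.05, GCLC by 0.57 ± 0.05 and GSS by 0.40 ± 0.05. GPX4, the lipid peroxidase that uses glutathione, was the single member that fell (-0.12 ± 0.04), and the list counted 15 higher genes of 18 (median 0.54).

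Amino acid transporters split. Of 23 tested, 9 rose (39.1%) and 6 fell (26.1%), against 29.7% and 29.6% of all tested genes. The median was 0.04. SLC1A4 and SLC1A5, carriers of small neutral amino acids, rose by 2.13 ± 0.05 and 2.07 ± 0.04, SLC38A1 by 1.98 ± 0.05, the glycine transporter SLC6A9 by 1.94 ± 0.05 and SLC7A5, which exchanges large neutral amino acids, by 1.39 ± 0.04. SLC7A5 was abundant, with 929 ± 7.80 CPM at 8 h and 354 ± 1.74 CPM untreated. SLC38A2 fell by 0.32 ± 0.04, SLC36A1 by 0.53 ± 0.06 and the low SLC38A3 by 1.50 ± 0.36 (-0.73 on the log2(TPM + 1) scale).

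ATF4 paired with C/EBP proteins is known to bind the letters TGATGNAA. The 250 bases before the start of 4 raised genes are printed because they hold this motif, 5′ to 3′ on the gene's strand from RefSeq on GRCh38.p14, with the matching letters in capitals (TTGCATCA is the same motif on the other strand).
ASNS (chr7:97872409-97872658, minus strand): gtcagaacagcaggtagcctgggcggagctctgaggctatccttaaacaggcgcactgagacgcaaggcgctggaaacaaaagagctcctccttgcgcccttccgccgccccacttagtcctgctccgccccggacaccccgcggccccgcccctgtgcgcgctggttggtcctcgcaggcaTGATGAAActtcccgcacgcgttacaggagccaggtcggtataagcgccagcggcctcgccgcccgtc
CHAC1 (chr15:40953221-40953470, plus strand): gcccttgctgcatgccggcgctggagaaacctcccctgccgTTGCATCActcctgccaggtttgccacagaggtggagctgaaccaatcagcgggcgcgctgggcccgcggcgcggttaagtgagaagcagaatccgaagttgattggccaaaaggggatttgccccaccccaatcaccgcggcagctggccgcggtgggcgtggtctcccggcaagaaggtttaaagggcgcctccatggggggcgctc
GOT1 (chr10:99430625-99430874, minus strand): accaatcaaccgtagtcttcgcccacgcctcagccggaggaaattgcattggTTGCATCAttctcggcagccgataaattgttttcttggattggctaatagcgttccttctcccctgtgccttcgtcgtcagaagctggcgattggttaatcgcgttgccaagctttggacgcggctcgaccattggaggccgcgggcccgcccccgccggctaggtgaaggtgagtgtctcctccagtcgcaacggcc
MTHFD1L (chr6:150866236-150866485, plus strand): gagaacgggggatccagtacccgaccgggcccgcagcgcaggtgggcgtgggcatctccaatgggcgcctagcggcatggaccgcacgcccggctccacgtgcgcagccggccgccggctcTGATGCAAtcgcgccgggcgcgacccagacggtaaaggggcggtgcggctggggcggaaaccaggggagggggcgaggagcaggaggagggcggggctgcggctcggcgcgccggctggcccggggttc
The motif begins 68 bases before the start in ASNS, 209 in CHAC1, 198 in GOT1 and 129 in MTHFD1L. Over windows of 250 bases before to 50 after the start, both strands, TGATGNAA was found in 7 of the 17 promoters listed for the 33 members of the 3 enzyme lists, the transporter list and the cytosolic tRNA synthetase list that rose at least 2-fold. It was found in 5.35% of 561 promoters of all genes higher at least 2-fold, in 2.07% of 871 lower at least 2-fold and in 1.79% of 11540 tested genes. The palindrome TGACGTCA, which shares no full match with TGATGNAA, was found in 2.85%, 1.49% and 3.04% of the same sets. A match describes letters in a window and not a bound site.

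Cytosolic tRNA synthetases, which charge tRNAs with amino acids, rose nearly as a block. Of 20 tested 19 rose and 1 fell, with a median of 1.19, the highest among the 48 lists. Their summed level ran from 6162 to 6286 CPM at 8 h, against 2755 to 2861 CPM untreated, a ratio of 2.23. GARS, the glycine enzyme, had 882, 862 and 874 CPM in the 8 h libraries, against 255, 229.5 and 237 CPM in the untreated libraries, a change of 1.86 ± 0.03. WARS (tryptophan) rose by 2.21 ± 0.05, SARS (serine) by 1.74 ± 0.03, YARS (tyrosine) by 1.71 ± 0.03 and CARS (cysteine) by 1.62 ± 0.04. The smallest rises were those of RARS (0.24 ± 0.03), KARS (0.32 ± 0.03) and DARS (0.39 ± 0.04). QARS, the glutamine enzyme, had 128, 141 and 140.2 CPM in the 8 h libraries, against 185, 182 and 184 CPM in the untreated libraries. All 3 treated wells of QARS were below the untreated wells, and the change was -0.43 ± 0.04.

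The mitochondrial synthetases moved less: 8 of 17 rose and 3 fell, and the median was 0.26. PARS2 rose by 0.64 ± 0.14, WARS2 by 0.61 ± 0.07, EARS2 by 0.53 ± 0.08 and LARS2 by 0.49 ± 0.06. AARS2 and VARS2 fell by 0.36 ± 0.07 and 0.19 ± 0.06, though VARS2 was 0.02 and not called on the log2(TPM + 1) scale, nor called without untreated well 3 or treated well 2. No change in this list exceeded 0.640 in log2, below the median of the cytosolic set.

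Among regulators of mTORC1, the kinase complex that matches growth to nutrients, 2 genes rose and 11 of 16 fell (median -0.29; 7 fell on the log2(TPM + 1) scale). The 2 were the inhibitors SESN2 and DDIT4. SESN2 (chr1:28259527-28282491), a leucine sensor, had 272, 279 and 279 CPM in the 8 h libraries, against 35.97, 33.2 and 40.6 CPM in the untreated libraries, a change of 2.91 ± 0.06. DDIT4 (chr10:72273920-72276036), which acts through the TSC complex, had 432, 418 and 425 CPM in the 8 h libraries, against 65.9, 67.9 and 65.8 CPM in the untreated libraries, a change of 2.68 ± 0.06. Neither gene's wells overlapped. SESN3, a paralog of SESN2, fell by 1.42 ± 0.08 and SESN1 was not called (-0.14). The TSC complex genes TSC1 and TSC2 fell by 0.35 ± 0.05 and 0.16 ± 0.05, FLCN by 0.27 ± 0.05, FNIP2 by 1.26 ± 0.09 and RRAGC by 0.46 ± 0.06. TSC1 was not called on the log2(TPM + 1) scale (-0.19).

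EIF4EBP1, a repressor of cap-dependent translation that mTORC1 holds off, had 103, 87.1 and 89.3 CPM in the 8 h libraries, against 31.6, 27.2 and 28.7 CPM in the untreated libraries. The treated wells were about 3 times the untreated ones, a change of 1.66 ± 0.07. EIF4EBP2, its paralog, fell by 0.72 ± 0.05. In the list of 42 initiation and elongation factors 31 rose and 6 fell (median 0.27; 3 fell on the log2(TPM + 1) scale). EIF5, which starts GTP hydrolysis on eIF2, rose by 1.01 ± 0.03, EIF1, a factor of start codon choice, by 0.78 ± 0.03, EIF3B by 0.67 ± 0.03 and EIF3J by 0.69 ± 0.03. EIF4B fell by 0.19 ± 0.03 and the elongation factor EEF1A1 by 0.10 ± 0.02.

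Genes of ribosome building and ribosome parts did not move alike. Subunits and factors of RNA polymerases I and III, which make ribosomal and transfer RNA, rose in 22 of 29 cases with 1 fall (median 0.55). CRCP rose by 1.11 ± 0.05, POLR3C by 1.04 ± 0.05 and POLR1B by 0.97 ± 0.04. Of 25 host genes of small nucleolar RNAs 16 rose and 3 fell (median 0.63). GAS5, whose spliced RNA is known to be degraded when it is translated, had 325, 311 and 329.8 CPM in the 8 h libraries, against 113, 108 and 110.3 CPM in the untreated libraries, a change of 1.54 ± 0.05. ZFAS1, SNHG1, SNHG5 and SNHG17 rose by 1.69 ± 0.06, 1.69 ± 0.05, 1.79 ± 0.07 and 1.68 ± 0.06, whereas SNHG14 fell by 0.80 ± 0.06.

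Cytosolic ribosomal protein genes fell slightly, with 44 of 83 lower and 4 higher and a median of -0.09, against 36 lower, 7 higher and -0.06 on the log2(TPM + 1) scale. RPL7A fell by 0.59 ± 0.03, RPL23 by 0.34 ± 0.03 and RPS25 by 0.36 ± 0.03. RPL4, RPL10A and RPL8 rose by 0.15 ± 0.02, 0.18 ± 0.03 and 0.10 ± 0.02. Ribosomal protein genes of the mitochondrion went up instead, 49 of 78 higher and 7 lower (median 0.25). MRPL15 rose by 0.89 ± 0.06, MRPS35 by 0.80 ± 0.05 and MRPL3 by 0.66 ± 0.04, while MRPS6 fell by 0.53 ± 0.08. Ribosomal protein genes have many processed copies, and the way the authors' counting shared reads among them is not stated.

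Factors of nonsense-mediated decay, the pathway that removes mRNAs with early stops, rose in 14 of 16 cases with 0 falls (median 0.42). SMG9 rose by 0.76 ± 0.05, SMG1 by 0.54 ± 0.04 and UPF1 by 0.28 ± 0.04, and SMG8 and NBAS were not called. SR proteins and hnRNPs, which steer splicing, counted 18 higher and 8 lower of 34 (median 0.14). SRSF7 rose by 0.72 ± 0.04 and HNRNPAB by 0.41 ± 0.03, while HNRNPH3, HNRNPH2 and HNRNPA1 fell by 0.74 ± 0.03, 0.71 ± 0.04 and 0.47 ± 0.02.

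Purine and pyrimidine synthesis rose in 16 of 17 genes (median 0.49). CTPS1, which makes CTP, had 614, 615 and 625 CPM in the 8 h libraries, against 252, 255 and 253 CPM in the untreated libraries. The wells were well separated, with a change of 1.29 ± 0.03. The purine enzymes GART, PFAS, ATIC, PPAT and PAICS rose by 0.91 ± 0.03, 0.80 ± 0.06, 0.74 ± 0.05, 0.57 ± 0.05 and 0.57 ± 0.03, and DHODH, the pyrimidine enzyme of the mitochondrion, by 0.89 ± 0.09. CTPS2, the second CTP synthase, fell by 1.02 ± 0.12 at 6.26 CPM at 8 h and 12.8 CPM untreated.

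Mitochondrial genes parted by function. Chaperones, proteases and import subunits counted 16 higher and 3 lower of 22 (median 0.50). HSPA9, the matrix Hsp70, had 562, 568 and 575 CPM in the 8 h libraries, against 251, 242 and 246 CPM in the untreated libraries, a change of 1.21 ± 0.03. The matrix protease gene LONP1 rose by 1.21 ± 0.04, DNAJA3 by 1.14 ± 0.05, the import pore gene TOMM40 by 0.97 ± 0.05 and AFG3L2 by 0.80 ± 0.04. HSPE1, the small chaperonin, fell by 0.49 ± 0.05, and OMA1, a protease of the inner membrane known to relay mitochondrial stress to the ISR, fell by 0.83 ± 0.10 but was not called on the log2(TPM + 1) scale (-0.57).

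Subunits of the respiratory chain encoded in the nucleus were mostly lower, 36 of 61 against 8 higher (median -0.18). COX7B fell by 0.79 ± 0.06, NDUFA2 by 0.83 ± 0.08, NDUFB4 by 0.64 ± 0.05 and COX7C by 0.44 ± 0.04. The electron carrier cytochrome c, CYCS, rose by 0.58 ± 0.03, and CYC1 by 0.25 ± 0.04. All 13 protein genes of the mitochondrial genome were lower, with a median of -0.29 and changes between -0.37 for MT-ATP8 and -0.12 for MT-ND1. MT-CYB had 1939.8, 2003 and 2027 CPM in the 8 h libraries, against 2578, 2532 and 2559 CPM in the untreated libraries, without overlap. The mitochondrial share of all counts, given above, was lower as well. Carriers of the SLC25 family counted 14 higher (31.8%) and 9 lower (20.5%) of 44, against 29.7% and 29.6% of all tested genes. Their median of -0.03 was 0.06 on the log2(TPM + 1) scale. SLC25A38, a glycine carrier, rose by 1.23 ± 0.06 and the folate carrier SLC25A32 by 0.59 ± 0.03, and the citrate carrier SLC25A1 fell by 0.56 ± 0.05.

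The genes of protein folding in the ER did not rise as a group. Of 34 tested 19 were lower and 8 higher (median -0.19). HSPA5 (chr9:125234853-125241330), the ER chaperone BiP, had 925, 921 and 956 CPM in the 8 h libraries, against 748, 705 and 711 CPM in the untreated libraries. Its wells did not overlap, and the change was 0.37 ± 0.03. XBP1, a transcription factor of the ER stress response, had 303, 322 and 329.8 CPM in the 8 h libraries, against 112, 107 and 106 CPM in the untreated libraries, a change of 1.55 ± 0.05, and ERN1, the IRE1 sensor, rose by 0.80 ± 0.06. WFS1 fell by 1.16 ± 0.06, MANF by 0.61 ± 0.05, PDIA4 by 0.43 ± 0.04, HSP90B1 by 0.38 ± 0.02 and CALR by 0.28 ± 0.03. The tables do not separate spliced from unspliced XBP1.

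In the cytosol the inducible Hsp70 genes were strongly lower. HSPA1A had 12.9, 11.4 and 11.9 CPM in the 8 h libraries, against 111, 104 and 112 CPM in the untreated libraries. The highest treated well was far below the lowest untreated well, and the change was -3.18 ± 0.09. HSPA1B, a near-identical copy whose reads may be shared with HSPA1A, fell by 2.46 ± 0.08. HSPA8, the constitutive Hsp70, had 401, 381 and 393 CPM in the 8 h libraries, against 1015, 961 and 944 CPM in the untreated libraries, a change of -1.32 ± 0.03. Subunits of the chaperonin CCT rose, CCT5 by 0.37 ± 0.03, CCT6A by 0.37 ± 0.03, CCT2 by 0.32 ± 0.03 and CCT4 by 0.22 ± 0.03, so the list of 27 counted 12 higher and 11 lower genes. Proteasome genes counted 24 higher and 10 lower of 46 (median 0.11; 6 lower on the log2(TPM + 1) scale). PSME3 rose by 0.55 ± 0.03, PSMD2 by 0.46 ± 0.03 and the assembly factor PSMG3 by 0.87 ± 0.06, while PSMD10 fell by 0.59 ± 0.10.

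**Figure D3:**
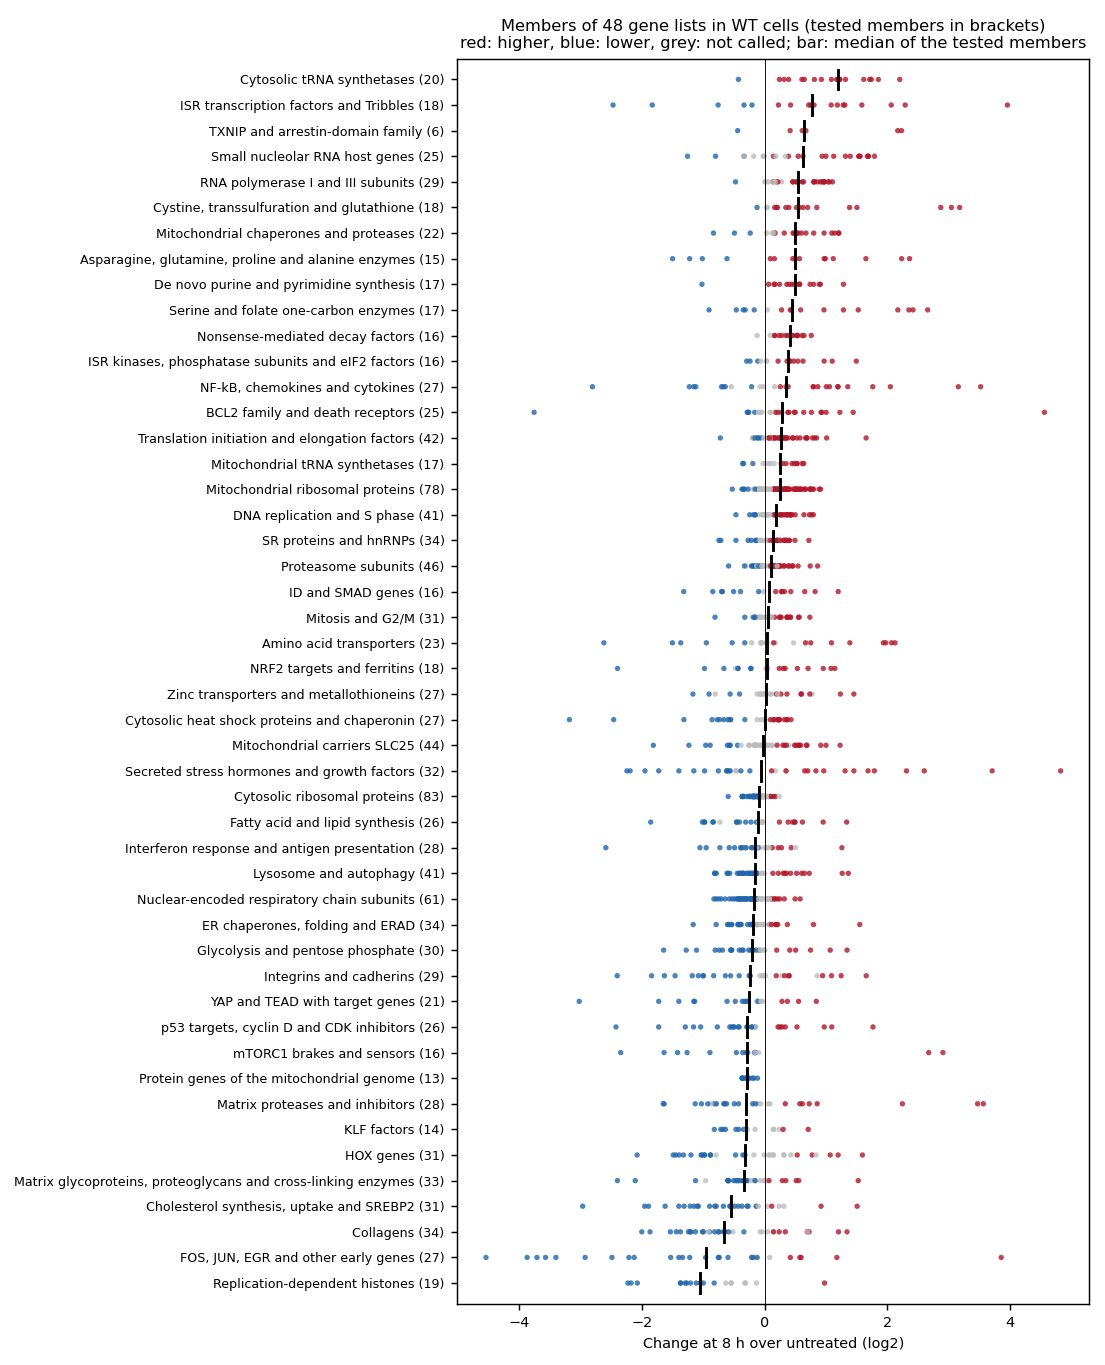
Each row is 1 of the 48 gene lists in WT cells with its number of tested members in brackets, each point is the log2 change of 1 member at 8 h over untreated, and the black bar is the median. Red members were higher, blue lower and grey not called; the rows run from cytosolic tRNA synthetases with a median of 1.19 at the top to replication-dependent histones with -1.05 at the bottom.

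Cholesterol genes were lower: 23 of 31 fell, 3 rose, and the median was -0.55. STARD4, a carrier of sterols, had 36.4, 34.4 and 32.1 CPM in the 8 h libraries, against 131, 135 and 131 CPM in the untreated libraries. INSIG1, a sterol-regulated brake on SREBP processing, had 5.64, 5.99 and 7.10 CPM in the 8 h libraries, against 48.4, 49.2 and 50.4 CPM in the untreated libraries. In both genes every treated well was far below every untreated well, and the changes were -1.96 ± 0.06 and -2.97 ± 0.11. HMGCS1, an early enzyme of the pathway, fell by 1.21 ± 0.05. VLDLR, a lipoprotein receptor gene (chr9:2621834-2660053) had 59.1, 62.4 and 57.4 CPM in the 8 h libraries, against 18.8, 20.7 and 23.4 CPM in the untreated libraries, a change of 1.51 ± 0.06, and LRP8 rose by 0.92 ± 0.07.

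Genes of fatty acid and lipid synthesis counted 8 higher and 12 lower of 26 (median -0.11). The desaturase genes SCD, SCD5 and FADS2 fell by 0.84 ± 0.03, 1.86 ± 0.12 and 1.01 ± 0.04, and FASN, fatty acid synthase, by 0.41 ± 0.03. DGAT2 and PLIN2, genes of triglyceride synthesis and storage, rose by 1.34 ± 0.10 and 0.96 ± 0.07. Glycolysis and the pentose phosphate pathway counted 20 lower and 6 higher of 30 (median -0.20). ENO2 fell by 1.11 ± 0.06, PFKM by 0.81 ± 0.05, PFKFB3 by 0.69 ± 0.04 and the glucose transporter SLC2A1 by 0.54 ± 0.04. In contrast, HK2 rose by 1.35 ± 0.07 and PDK1, a pyruvate dehydrogenase kinase, by 1.07 ± 0.07.

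Lysosome and autophagy genes counted 25 lower and 12 higher of 41 (median -0.16). NPC2 fell by 0.61 ± 0.03, CTSL by 0.60 ± 0.05, GRN by 0.42 ± 0.03, the proton pump subunit ATP6V1A by 0.81 ± 0.06 and ULK1, the kinase that starts autophagy, by 0.82 ± 0.07. MAP1LC3B, the autophagosome protein LC3B, had 382, 379.8 and 401 CPM in the 8 h libraries, against 159, 144 and 148 CPM in the untreated libraries, a rise of 1.37 ± 0.04, and ATG3 rose by 0.65 ± 0.05 and TFE3 by 0.73 ± 0.03. TXNIP, which restrains glucose uptake, rose by 2.23 ± 0.12 and its relative ARRDC4 by 2.17 ± 0.16; 5 of 6 genes of that family and its regulator MLXIP were higher, and ARRDC1 fell by 0.44 ± 0.07.

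Genes tied to NRF2, the regulator of antioxidant genes, were divided, with 8 higher and 7 lower of 18. TXNRD1 rose by 1.15 ± 0.04, SRXN1 by 1.08 ± 0.04, OSGIN1 by 0.96 ± 0.10 and NFE2L2 itself by 0.54 ± 0.04. PRDX1, a peroxiredoxin, had 303 ± 15.5 CPM at 8 h and 597 ± 13.1 CPM untreated, a change of -0.98 ± 0.04, and CAT, SOD1 and the ferritin genes FTL and FTH1 fell by 0.66 ± 0.06, 0.43 ± 0.03, 0.43 ± 0.03 and 0.22 ± 0.03. Zinc transporters and metallothioneins counted 8 higher (29.6%) and 4 lower (14.8%) of 27, against 29.7% and 29.6% of all tested genes (median 0.03). SLC39A14, a zinc and iron importer, rose by 1.46 ± 0.03 and MT2A by 0.74 ± 0.06, and the zinc exporter SLC30A1 fell by 1.17 ± 0.06. Metallothionein genes resemble each other, so their counts are uncertain.

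DNA replication genes rose modestly in 24 of 41 cases with 5 falls (median 0.18). CDC6 rose by 0.80 ± 0.05, CDT1 by 0.77 ± 0.08, POLE2 by 0.73 ± 0.08 and MCM7 by 0.37 ± 0.04. PCNA, the sliding clamp, fell by 0.47 ± 0.05. Mitotic genes counted 13 higher and 5 lower of 31 (median 0.06, or 0.11 on the log2(TPM + 1) scale), with TTK up by 0.74 ± 0.09, KIF2C by 0.57 ± 0.04 and AURKA by 0.55 ± 0.07 and KIF20A down by 0.81 ± 0.07. Of the 86 replication-dependent histone genes in the list only 19 had enough counts to be tested, 12 were lower and 1 higher, and the median was -1.05. HIST1H2BD fell by 2.23 ± 0.26, HIST2H2BE by 2.18 ± 0.21 and HIST1H1C by 1.27 ± 0.16, and on the log2(TPM + 1) scale HIST2H2BE was -1.53. These mRNAs mostly lack a poly(A) tail and come from near-identical copies, and their mean levels here were below 15 CPM.

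The list of p53 targets, D cyclins and cyclin kinase inhibitors counted 17 lower and 8 higher genes of 26 (median -0.28). BTG2, an antiproliferative gene, had 38.2, 40.0 and 38.8 CPM in the 8 h libraries, against 198, 208 and 222 CPM in the untreated libraries, a change of -2.42 ± 0.07, and CDKN2C, CDKN2B and TP53INP1 fell by 1.29 ± 0.08, 1.04 ± 0.08 and 1.16 ± 0.08. BTG1, a relative of BTG2, rose by 1.77 ± 0.07. GADD45A, a stress gene of growth arrest, had 423, 450.2 and 466 CPM in the 8 h libraries, against 224, 203 and 199 CPM in the untreated libraries, a rise of 1.10 ± 0.05, and CCND2, cyclin D2, rose by 0.97 ± 0.03.

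Genes of the BCL2 family and of death receptors counted 15 higher and 5 lower of 25 (median 0.28). BCL2A1 (chr15:79960889-79971446), a protective member, had 19.1, 20.9 and 24.8 CPM in the 8 h libraries, against 1.52, 0.591 and 0.492 CPM in the untreated libraries, a rise of 4.56 ± 0.22 (5.32 without untreated well 1). The death receptor gene TNFRSF10B (DR5) rose by 1.23 ± 0.04 and PMAIP1, which encodes the killer protein NOXA, by 1.00 ± 0.05, and BIRC2 and BIRC3, inhibitors of apoptosis, by 0.92 ± 0.04 and 1.45 ± 0.10. BMF, a pro-death member, had 1.06, 0.363 and 0.952 CPM in the 8 h libraries, against 8.83, 11.3 and 11.8 CPM in the untreated libraries. The treated wells of BMF lay near 1 CPM or below, a change of -3.76 ± 0.23 (-2.04 on the log2(TPM + 1) scale). MCL1 fell by 0.28 ± 0.03.

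In the list of NF-kB factors, chemokines and cytokines 15 of 27 rose and 8 fell (median 0.35). TRAF1, an adaptor induced by NF-kB, had 333, 354 and 383 CPM in the 8 h libraries, against 45.5, 37.2 and 36.4 CPM in the untreated libraries, a rise of 3.16 ± 0.09. The subunit genes RELB and NFKB2 rose by 1.36 ± 0.05 and 0.87 ± 0.04 and IL32 by 1.20 ± 0.05. REL fell by 1.23 ± 0.08, TNFAIP3, which ends NF-kB signalling, by 1.16 ± 0.11 and the chemokine CXCL14 by 2.81 ± 0.13. Interferon and antigen presentation genes counted 13 lower and 5 higher of 28 (median -0.15), and on the log2(TPM + 1) scale the median was -0.08. IFIT1 fell by 2.59 ± 0.29 at 0.764 CPM at 8 h and 4.67 CPM untreated (-1.70 on the log2(TPM + 1) scale), STAT2 by 0.95 ± 0.06 and DDX58 by 0.73 ± 0.08. TAP2, a peptide transporter subunit, rose by 1.26 ± 0.07.

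Early response genes were among the most lowered. Of 27 tested 20 fell and 5 rose, with a median of -0.96. NR4A1, an orphan nuclear receptor, had 43.3, 55.0 and 58.3 CPM in the 8 h libraries, against 518, 578 and 582 CPM in the untreated libraries. DUSP2, a MAP kinase phosphatase, had 29.2, 35.6 and 39.6 CPM in the 8 h libraries, against 366, 434 and 458 CPM in the untreated libraries. All treated wells of both genes were far below all untreated wells, and the changes were -3.40 ± 0.09 and -3.57 ± 0.11. JUNB and IER3 fell by 1.40 ± 0.04 and 1.22 ± 0.04. Among the 5 that rose were genes of the MYC network. MYC had 399.8, 410.3 and 413 CPM in the 8 h libraries, against 188, 177 and 175 CPM in the untreated libraries, a rise of 1.18 ± 0.04, its partner MAX rose by 0.58 ± 0.04, and MXD1, which competes with MYC for MAX, had 43.7, 40.1 and 46.3 CPM in the 8 h libraries, against 3.56, 2.36 and 2.81 CPM in the untreated libraries, a rise of 3.86 ± 0.14 (2.90 on the log2(TPM + 1) scale).

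KLF factors counted 7 lower and 2 higher of 14 (median -0.31, or -0.13 on the log2(TPM + 1) scale), with KLF13 down by 0.82 ± 0.04, KLF6 by 0.64 ± 0.05 and KLF2 up by 0.71 ± 0.08. YAP and TEAD genes and their targets counted 13 lower and 4 higher of 21 (median -0.26). CTGF, a matricellular growth factor, had 650.5, 641 and 660.3 CPM in the 8 h libraries, against 2144, 2202 and 2113 CPM in the untreated libraries, a change of -1.73 ± 0.05. CYR61 fell by 1.15 ± 0.04, and TGFB2 by 1.40 ± 0.05, the change of F3, tissue factor, was -3.02 ± 0.09, and TEAD4 rose by 0.84 ± 0.05. All 4 ID genes fell, ID1 by 0.70 ± 0.06, ID2 by 0.69 ± 0.13, ID3 by 0.51 ± 0.05 and ID4 by 0.84 ± 0.11. Of the SMAD genes SMAD7, SMAD9, SMAD1, SMAD5, SMAD4 and SMAD2 rose, by 0.18 ± 0.05 for SMAD2 to 1.20 ± 0.16 for SMAD9, SMAD6 fell by 1.32 ± 0.11 and SMAD3 was not called. Over the 16 genes of that list 8 rose and 7 fell. ID2 and SMAD2 were not called on the log2(TPM + 1) scale (-0.47 and 0.18).

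Secreted hormones and growth factors were even, with 14 higher and 14 lower of 32. FGF21, a stress hormone, had 3.41, 3.08 and 3.03 CPM in the 8 h libraries, against 0.132, 0.0985 and 0.0702 CPM in the untreated libraries, a rise of 4.83 ± 0.43 at a level of a few CPM (2.31 on the log2(TPM + 1) scale). INHBE, an activin subunit, rose by 2.60 ± 0.12 and ADM2, an adrenomedullin relative, by 2.32 ± 0.07, and ADM2 had 119 ± 5.86 CPM at 8 h and 24.0 ± 0.911 CPM untreated. VEGFA rose by 0.97 ± 0.05, FGF2 by 1.69 ± 0.06 and NRG1 by 1.31 ± 0.09. GDF15 (chr19:18374731-18389176), another stress hormone, had 45.0, 38.6 and 39.6 CPM in the 8 h libraries, against 28.98, 23.2 and 24.9 CPM in the untreated libraries, without overlap and with a change of 0.65 ± 0.09.

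Collagens and other matrix genes were mostly lower. Of 34 collagen genes 20 fell and 7 rose (median -0.66). On the log2(TPM + 1) scale 16 fell and 5 rose with a median of -0.31, and by DESeq2 18 fell and 4 rose. COL1A1 had 899, 889 and 915 CPM in the 8 h libraries, against 1373, 1445 and 1419 CPM in the untreated libraries, a change of -0.65 ± 0.03. COL4A4, COL9A2 and COL11A1 fell by 1.21 ± 0.08, 1.20 ± 0.07 and 1.01 ± 0.07, while COL6A3 and COL27A1 rose by 1.34 ± 0.08 and 1.21 ± 0.07. Matrix glycoproteins and cross-linking enzymes counted 18 lower and 6 higher of 33 (median -0.33; 3 higher on the log2(TPM + 1) scale). THBS1, thrombospondin, had 281, 321 and 345 CPM in the 8 h libraries, against 1666, 1668 and 1680.3 CPM in the untreated libraries. TNC, tenascin C, had 383, 385 and 395 CPM in the 8 h libraries, against 143, 125 and 135 CPM in the untreated libraries. The pair moved apart, with changes of -2.40 ± 0.05 for THBS1 and 1.53 ± 0.03 for TNC and no overlap in either.

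Matrix proteases and inhibitors counted 14 lower and 8 higher of 28 (median -0.31). TIMP2, MMP2 and MMP14 fell by 1.03 ± 0.03, 0.82 ± 0.03 and 0.79 ± 0.04, and MMP9 and MMP10 rose by 2.25 ± 0.13 and 3.57 ± 0.23, MMP9 with 60.5 ± 5.60 CPM at 8 h and 12.4 ± 4.13 CPM untreated. On the log2(TPM + 1) scale MMP10 was 2.46. Integrins and cadherins counted 15 lower and 8 higher of 29 (median -0.23). ITGB8 fell by 2.40 ± 0.08 and ITGA7 by 1.00 ± 0.06 (-1.64 on the log2(TPM + 1) scale), and ITGA2, a collagen receptor subunit, rose by 1.09 ± 0.11. HOX genes, which mark position along the body, counted 15 lower and 5 higher of 31 (median -0.32, or -0.19 on the log2(TPM + 1) scale), with HOXB3 down by 1.39 ± 0.08 and HOXB9 up by 1.20 ± 0.06.

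The genes with the largest changes, some of them members of these lists, were mostly of low level. Among genes that averaged 1 CPM or more and no overlap, the 10 largest rises included FGF21 and BCL2A1, given above, and MYCT1 (chr6:152697895-152724567), with 18.8, 20.0 and 17.2 CPM in the 8 h libraries, against 0.790, 0.493 and 0.773 CPM in the untreated libraries, a rise of 4.70 ± 0.20. INSC, an adaptor of spindle orientation, rose by 4.61 ± 0.41 at 3.31 CPM at 8 h and 0.132 CPM untreated, and TMEM265, which overlaps SRCAP on the same strand, by 4.32 ± 0.33. ASNSP1, a pseudogene of ASNS whose reads may come from its parent, rose by 4.27 ± 0.24. KLHDC7B had 66 counts over the 8 h wells and 3 over the untreated wells, a ratio per library size of 28 (exact 95% interval 9.17 to 139). RP11-875O11.3, an antisense RNA on chromosome 8, had 119 counts at 8 h and 2 untreated, a ratio of 75.7 (exact 95% interval 20.5 to 632). RP11-495P10.7 had 104 counts at 8 h and 3 untreated, a ratio of 44.1 (exact 95% interval 14.7 to 217). The 10th, DUX4L19, belongs to a family of near-identical copies and is not described. These intervals cover counting error only. On the log2(TPM + 1) scale, which shrinks low genes, the changes were 2.94 for MYCT1, 1.81 for INSC, 3.32 for TMEM265 and 3.10 for ASNSP1. Without untreated well 3 INSC was 4.01, and without untreated well 2 TMEM265 was 5.31.

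On the falling side EGR2, an early growth response factor, had 1.17, 1.90 and 2.42 CPM in the 8 h libraries, against 39.7, 45.9 and 48.3 CPM in the untreated libraries, a change of -4.54 ± 0.19. SLC2A12 (chr6:133988697-134052636), a glucose transporter, had 3.52, 3.27 and 3.55 CPM in the 8 h libraries, against 54.0, 62.8 and 64.7 CPM in the untreated libraries, a change of -4.13 ± 0.17. Every treated well of these genes was far under the untreated wells. NR4A2 fell by 3.87 ± 0.14, SDPR, a caveolar protein, by 3.94 ± 0.21, the peptide hormone gene EDN2 by 3.92 ± 0.17 and KIAA1210 by 4.61 ± 0.43. NPAS4, an activity-regulated factor, had 3 counts at 8 h and 241 untreated, lower by a ratio of 63.1 (exact 95% interval 21.3 to 308). RP11-903H12.5, a locus that spans ANG and RNASE4, and AC026348.1 had 0 counts over the 8 h wells, which read as 3 counts over the group makes them at least 28.6-fold and at least 26.5-fold lower. The assignment of reads to RP11-903H12.5 and to HNRNPA1P66, a pseudogene of HNRNPA1 that fell by 4.17 ± 0.48, is uncertain. So is that of AC026348.1, which has no match in the annotation. Its WT wells had 1.22, 0 and 3.46 CPM at 4 h and 1.37, 0 and 1.97 CPM at 16 h. Those of RP11-903H12.5 had 1.43, 3.49 and 0 CPM at 4 h, so a group of 0 counts is weak ground for either fall. On the log2(TPM + 1) scale the changes were -3.40 for EGR2, -3.28 for SLC2A12, -2.66 for SDPR, -0.70 for KIAA1210 and -2.17 for HNRNPA1P66.

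The 8 h wells were also set against their neighbours in time. Between 4 h and 8 h 3421 genes rose (18%) and 3433 fell (18%), of which 185 (0.971%) and 553 (2.9%) moved at least 2-fold. Between 8 h and 16 h 4684 rose (24.6%) and 4411 fell (23.2%), of which 310 (1.63%) and 1147 (6.02%) moved at least 2-fold. ATF4 had 684, 668 and 694 CPM at 4 h, 720.5, 707 and 746 CPM at 8 h and 667, 694 and 687 CPM at 16 h, so the level at 8 h was only a little above its neighbours. DDIT4 fell between 4 h and 8 h by 0.28 ± 0.05 and DDIT3 by 0.30 ± 0.06, and ATF3 by 0.87 ± 0.09. ATF3 had 239.9, 277 and 301 CPM at 4 h, 131, 153 and 162 CPM at 8 h and 123, 130.2 and 120.4 CPM at 16 h. TRIB3 and SLC7A11 rose between 4 h and 8 h by 1.03 ± 0.04 and 0.98 ± 0.04 and ASNS by 0.78 ± 0.04. Between 8 h and 16 h ASNS rose further by 0.36 ± 0.04 whereas TRIB3 fell by 0.30 ± 0.04.

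Whole lists had reached different points at 8 h. Cytosolic tRNA synthetases had a median change from untreated of 0.03 at 2 h, 0.61 at 4 h, 1.19 at 8 h, 1.34 at 16 h and 1.31 at 24 h. 19 of 20 rose from 4 h to 8 h. Cytosolic ribosomal proteins had -0.11, -0.08, -0.09, 0.18 and 0.23 at the same times, and 76 of 83 were higher at 16 h than at 8 h. Early genes had 0.73, -0.05, -0.96, -1.59 and -1.38, and 20 of 27 fell from 4 h to 8 h. THBS1 had 1348, 1436 and 1525 CPM at 4 h, 281, 321 and 345 CPM at 8 h and 139.6, 142 and 129 CPM at 16 h. Collagens had medians of -0.17, -0.25, -0.66, -1.42 and -1.35, lower again at 16 h. Cholesterol genes had -0.08, -0.31, -0.55, -1.12 and -1.15.

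Some genes turned at 8 h. Of 16007 genes averaging 1 CPM or more, 792 (4.95%) were higher at 8 h than at both 4 h and 16 h and 683 (4.27%) were lower. BCL2A1 had 6.53, 7.92 and 6.72 CPM at 4 h, 19.1, 20.9 and 24.8 CPM at 8 h and 6.28, 5.17 and 5.00 CPM at 16 h. ITGA2 had 70.1, 54.4 and 75.3 CPM at 4 h, 186, 168 and 184 CPM at 8 h and 56.8, 43.5 and 45.7 CPM at 16 h. In both the wells at 8 h were above all others. The other 4 with the largest peaks were LRFN5, HAVCR2, MMP10 and the cytokine subunit gene IL23A, whose step down to 16 h was -2.15, -1.41, -1.39 and -1.42. The largest dips were at low level, in CTD-2369P2.12, TMEM189-UBE2V1, HIST2H3C, PCDH17, KBTBD3 and a clone-named locus without a match in the annotation. CTD-2369P2.12 and TMEM189-UBE2V1 overlap other genes on the same strand and their wells scatter between 0 and several CPM at other times, so their counts are uncertain. PCDH17, a cadherin-like gene, had 1.12, 1.86 and 1.19 CPM at 4 h, 0.352, 0.363 and 0.519 CPM at 8 h and 1.52, 1.82 and 1.48 CPM at 16 h. On the log2(TPM + 1) scale the step of PCDH17 to 8 h (-0.25) was not called, and on the log2(TPM + 0.1) scale neither were the step of HAVCR2 to 8 h (1.04) and that of LRFN5 to 16 h (-1.26).

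**Figure D4:**
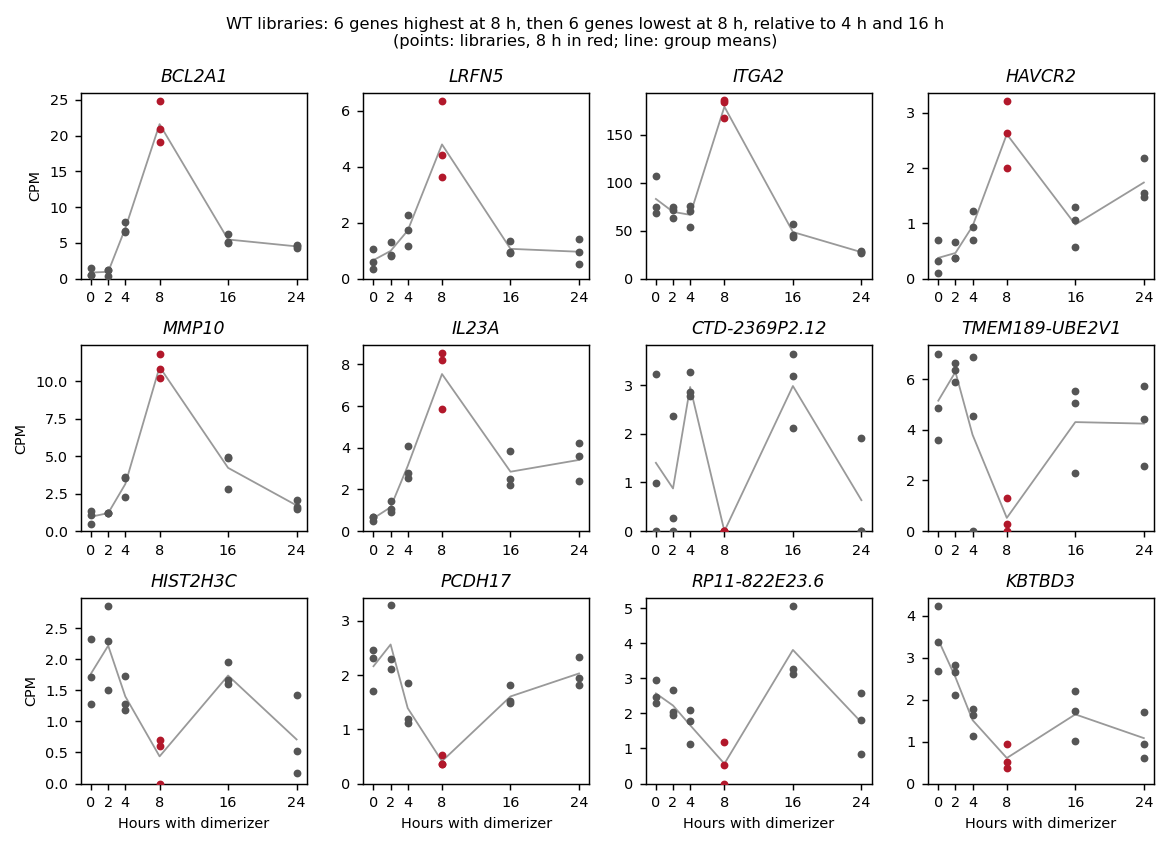
Each panel plots 1 gene in the WT libraries over hours with dimerizer (x axis) as CPM on a y axis that starts at 0; points are wells, red at 8 h, and the line joins group means. The first 6 genes were highest at 8 h relative to 4 h and 16 h and the last 6 lowest, and CTD-2369P2.12 and TMEM189-UBE2V1 show wide scatter between wells at other times.

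Whether the change at 8 h differs without ATF4 was tested as the ATF4KO change minus the WT change. The difference passed in 3477 genes (18.3%), positive in 2146 (11.3%) and negative in 1331 (6.99%), and it was at least 2-fold in 70 positive (0.368%) and 360 negative genes (1.89%). ATF4 mRNA itself was still counted in the knockout, with 739, 702 and 739 CPM in the 8 h ATF4KO wells and 259, 274 and 265 CPM in the untreated ATF4KO wells, and its rise was larger there by 0.26 ± 0.04. A gene count cannot show a change that stops the protein. Among genes that averaged 1 CPM or more, 866 rose at least 2-fold in WT cells, and in 284 of these the difference was negative. Of 1174 that fell at least 2-fold the difference was positive in 165. The WT change entered both the choice of these genes and the difference, so a difference of the opposite sign is favoured by the choice itself. Both counts are to be read with this limit and against the shares of all tested genes. At any size, 3855 genes that rose and 4122 that fell had no called difference, which does not show that they moved alike.

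DDIT4 had 12.6, 13.7 and 13.7 CPM in the 8 h ATF4KO wells, against 42.3, 45.1 and 43.8 CPM in the untreated ATF4KO wells. Without ATF4 it was lower at 8 h, the reverse of the WT wells given above, and the difference was -4.39 ± 0.12 (adjusted p = 1.2e-28). SESN2 had 24.5, 24.5 and 24.9 CPM at 8 h and 23.5, 25.6 and 23.7 CPM untreated in ATF4KO wells, a difference of -2.88 ± 0.12. ASNS had 14.3, 15.4 and 16.9 CPM at 8 h and 16.5, 18.2 and 17.2 CPM untreated, and the ATF4KO wells overlapped. Its difference was -2.52 ± 0.10. For TRIB3 (48.9, 45.8 and 47.5 CPM at 8 h and 23.9, 21.0 and 22.4 CPM untreated in ATF4KO wells) a smaller rise remained. CHAC1 was below 1 CPM in all 6 ATF4KO wells, and its difference of -1.51 was not called. FGF21 was at 0 there, so no fold is given for it. STC2 and TSLP, a secreted glycoprotein and a cytokine, showed differences of -4.41 and -4.54, again with ATF4KO levels near the floor at 8 h: 0.248, 0.170 and 0 CPM for STC2 and 0.413, 1.10 and 0.503 CPM for TSLP. Without untreated ATF4KO well 1 the difference of STC2 was -2.97 and not called.

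The genes that fell in WT wells and had the largest positive differences were of low level. They were picked by their WT change and their difference together, so the limit given above holds for them too. CSF2, the cytokine GM-CSF, had 8.58, 8.74 and 10.1 CPM in the 8 h ATF4KO wells and 6.75, 4.81 and 5.62 CPM in the untreated ATF4KO wells, and 1.53, 2.99 and 3.12 CPM in the 8 h libraries, against 6.98, 5.62 and 4.50 CPM in the untreated libraries of WT cells. It was higher at 8 h in ATF4KO wells and lower in WT wells, without overlap in either, and the difference was 1.81 ± 0.31 (adjusted p = 2.8e-05). The chemokine gene CCL3 had 1.65, 2.04 and 1.36 CPM at 8 h and 1.04, 2.31 and 2.00 CPM untreated in ATF4KO wells, which overlapped, while in WT wells it had 0.470, 0.544 and 0.433 CPM in the 8 h libraries, against 1.52, 2.36 and 1.05 CPM in the untreated libraries. NAALADL2 and RP11-174O3.3 showed differences of 2.65 and 1.48 with levels under 3 CPM in every well. The difference of CSF2 was called under every alternative run on it, none of which used TPM. That of CCL3 was not called without untreated ATF4KO well 1 (1.34), 8 h ATF4KO well 2 (1.42), untreated WT well 2 (1.27) or 8 h WT well 1 (1.56) or 3 (1.49), nor that of NAALADL2 without untreated WT well 1 (2.08). RP11-174O3.3 lost its call without untreated ATF4KO well 1 (1.34), 8 h ATF4KO well 3 (1.32) or untreated WT well 1 (1.35), and when genes of low counts were kept (1.50).

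Over the lists the same difference was counted, against 6.99% negative and 11.3% positive among all tested genes. Of 20 cytosolic tRNA synthetases it was negative in 12 and positive in 3 (median ATF4KO change 0.53, WT 1.19). Negative and positive differences numbered 7 and 2 of 17 serine and folate genes, 6 and 2 of 15 in the asparagine to alanine list, 8 and 3 of 18 in the cystine list and 11 and 1 of 23 transporters. In the ER folding list they numbered 13 and 0 of 34. HSPA5 had 335, 339 and 355 CPM in the 8 h ATF4KO wells and 642, 629.6 and 637 CPM in the untreated ones, and XBP1 fell there too (-0.70). Several other lists held more positive than negative differences, the negative ones given first: 0 and 31 of 83 cytosolic ribosomal proteins, 1 and 21 of 34 SR proteins and hnRNPs, 0 and 20 of 46 proteasome genes, 1 and 15 of 27 cytosolic chaperones, 1 and 13 of 30 glycolysis genes, 1 and 8 of 25 snoRNA host genes and 0 and 5 of 16 decay factors. Cholesterol genes counted 8 and 1 of 31 and collagens 1 and 3 of 34. Of the printed promoters, ASNS, GOT1 and MTHFD1L had differences of -2.52, -1.60 and -0.36, and that of CHAC1, given above, was not called. TGATGNAA was found in 8.47% of 177 promoters of genes higher at least 2-fold with a negative difference and in 3.91% of 384 of the other genes higher at least 2-fold.

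**Figure D5:**
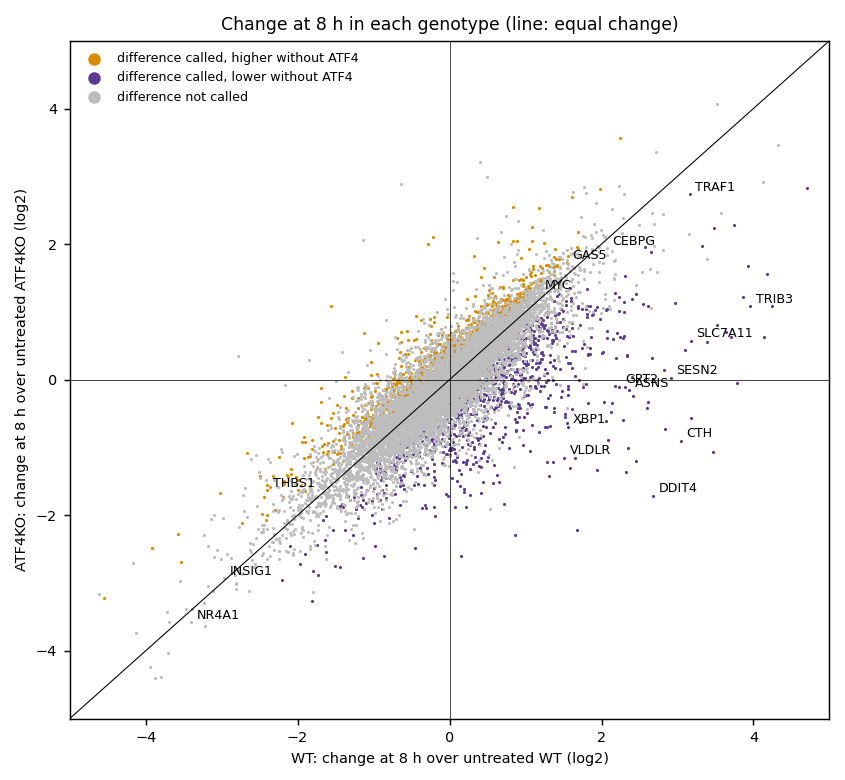
Each point is a gene that averaged 1 CPM or more in WT cells and over 0.3 CPM in both ATF4KO groups; the x axis is the log2 change at 8 h in WT cells, the y axis that in ATF4KO cells, each against its own untreated wells, and the line marks equal change. Purple genes had a called negative difference, orange a positive one. DDIT4 lies at -1.71 in ATF4KO and 2.68 in WT cells, and INSIG1 near the line at -2.93 in ATF4KO and -2.97 in WT cells. Both axes are cut, so larger changes, such as that of AC026348.1 in WT cells (-7.95), lie outside them.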

How the data were processed

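RNA was sequenced from U2OS wells, starting from 1000 ng of RNA per library per the labels. The authors deposited estimated counts and TPM per gene, made with Salmon 0.9.1 after FastQC 0.11.5 on GRCh38, per the submitters' processing notes; the annotation release and the way Salmon's transcript estimates were summed are not given in the sources used here. Estimated counts were rounded to whole numbers and fitted with edgeR 4.0.16 (R 4.3.3): TMM scaling, filterByExpr by group, a mean for each of 12 groups over all 36 libraries, quasi-likelihood F-tests and Benjamini-Hochberg adjustment over the 19043 tested genes, called under 0.05. The fit was tested on simulated data. The deposited TPM values, none below 0.102 in any library, entered only an alternative, limma 3.58.1 on log2(TPM + 1) or log2(TPM + 0.1). It was fitted over the WT libraries and was not run for the difference between genotypes. Other alternatives were DESeq2 1.42.0, RLE scaling, no filter, fewer groups, a replicate block and each library left out.

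Replicates were 3 wells per group. Replicates of 1 group differed by more than sampling noise (chi-square per degree of freedom 1.36 to 2.07), so none was a repeated file. Gene types and coordinates came from GENCODE 29, matched by identifier for 53330 of 57665 genes, and promoters from RefSeq (GRCh38.p14). Whether counting used strand is not given, so reads of overlapping genes cannot be told apart.

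Members and gene lists were chosen with earlier results of these data known. Named were 15 genes of the response, the 10 largest rises and 10 largest falls with a mean of 1 CPM or more and no overlap between wells, in each list the 5 members of smallest adjusted p in the majority direction and up to 3 against it (any member of lists of up to 20), the 6 largest peaks and 6 largest dips at 8 h, and the 6 rises and 6 falls in WT cells with the largest opposite difference in ATF4KO cells. Genes with at most 3 counts in a group were left out of the last set, and some genes that the rule names are not reported here.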

Additional observations from a re-analysis of the deposited data

Results flagged for a closer look

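Each result here was picked because the change at 8 h differed between ATF4KO and WT cells in the test of that difference (edgeR, adjusted over all tested genes). Values are the ATF4KO change minus the WT change in log2, with 3 wells in each of the 4 groups.

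Among genes of the response, the difference was -4.39 for DDIT4, -2.88 for TRIB3, -2.88 for SESN2, -2.61 for SLC7A11 and -2.52 for ASNS. It was -1.41 for ATF3, -0.64 for DDIT3 and -0.49 for PPP1R15A, and 0.26 for ATF4 itself. It was -2.66 for the receptor gene VLDLR, -2.17 for the hormone gene GDF15 and -1.26 for the chaperone gene HSPA5. A negative difference covers both a smaller rise and a fall in ATF4KO cells. PPP1R15A and DDIT3 still rose there, by 1.01 ± 0.06 and 0.67 ± 0.08. ATF3, GDF15, VLDLR and HSPA5 fell there, with changes of -1.18, -1.52, -1.15 and -0.89. SLC7A11 was at a low level there, with 3.18 CPM at 8 h and 2.22 CPM untreated.

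Of genes that rose in WT cells, TSLP and STC2 showed -4.54 and -4.41. Of genes that fell in WT cells, the difference was 2.65 for NAALADL2, 1.81 for CSF2, 1.57 for CCL3 and 1.48 for RP11-174O3.3. Some of these were not called when single wells were left out, as given with their levels. They were picked by their WT change as well, which is part of the difference.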

How the results depend on the processing

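Of 350 called gene results named in the text, 330 had the same call and direction under every alternative run for them. Exceptions that end a call stand beside their values. The TPM alternatives covered WT libraries only, so differences between genotypes were not checked on TPM. Relative to untreated WT wells, 5652 genes were higher and 5646 lower at 8 h. These counts were 4850 to 5673 and 4181 to 5652 under the alternatives other than single libraries left out. Not all of those used every library: the TPM fits used WT libraries, and the fit with fewer groups used the compared groups only. On log2(TPM + 0.1) and log2(TPM + 1), 2213 and 2280 genes were lower at 8 h than at 4 h, against 3433 from counts, and 2567 and 2596 were higher at 16 h than at 8 h, against 4684. The cause was not tested. With single libraries left out, counts higher and lower were 5308 to 5428 and 5214 to 5361 (8 h against untreated), 3059 to 3156 and 3042 to 3113 (8 h against 4 h), 4156 to 4374 and 3957 to 4267 (16 h against 8 h), and 1732 to 2037 positive and 1140 to 1282 negative (difference between genotypes).

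Some results changed sign. On both TPM scales the change was 0.01 for EIF2AK1, 0.02 for EIF2AK2, 0.03 for EIF2B4, 0.04 for SESN1 and 0.02 for VARS2. CHAC2 was -0.03 without untreated WT well 3 and -0.03 without 8 h WT well 1, and the uncalled difference of CHAC1 ran from -2.61 without 8 h ATF4KO well 3 to 0.04 without untreated ATF4KO well 2.

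Replicate numbers recur across groups. Deviations of same-numbered wells from their group means correlated at 0.017 to 0.0771 for WT 8 h and untreated, -0.00912 to 0.095 for WT 8 h and 4 h, and -0.058 to -0.022 for WT 16 h and 8 h. Over the 4 groups of the genotype difference they ran from -0.0911 to 0.254, over 0.1 in all 3 pairs of 8 h ATF4KO with untreated WT wells. In none of the 4 comparisons did every pair exceed 0.1, so the numbers were not taken to pair the wells. With a replicate block the counts were 5653 higher and 5652 lower (8 h against untreated), 3429 and 3434 (8 h against 4 h), 4697 and 4421 (16 h against 8 h), and 2177 and 1349 for the difference between genotypes, and no named gene changed its call.

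With 8608783 to 15178984 counts per library at 8 h or untreated, genes of a few CPM rest on few counts, and their changes are less firm.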
